A study of Mus musculus with 6 samples.

Results

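The genes described here encode potassium channels, voltage-gated calcium channels and their accessory subunits. They are all genes whose symbol starts with Kcn, or with Cacn followed by a, b or g, together with Abcc8 and Abcc9, the sulphonylurea receptors of ATP-sensitive potassium channels. Antisense and overlapping transcripts were left out, and each gene was taken through its brightest probe set with 1 symbol. This gave 115 genes of the 19938 measured, 91 of potassium channels and 24 of calcium channels, and 7 further genes of that description were not analysed here. The samples were ascending and descending aorta of untreated, wild-type mouse embryos of strain background C57BL/6, taken 13.5 days after conception, with 3 arrays for each segment. The design asks for expression profiles tied to the embryonic origin of the vessel wall, and its title contrasts smooth muscle of neural crest and of mesodermal origin. Each array carries the title of a biological replicate, but no embryo, litter or pool is named behind it. The p-values therefore measure only the spread between these samples, and how independent their sources were is not known. All values are log2 expression after RMA, an array method that equalises the distributions of the arrays, and differences are ascending minus descending.

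Potassium channels let potassium leave the cell and hold its membrane at a negative voltage. In vascular smooth muscle this voltage keeps L-type calcium channels closed, and opening of those channels admits the calcium that starts contraction. Inward rectifiers and two-pore channels set the resting voltage, voltage-gated and calcium-activated channels restore it, and accessory subunits change how often the pores reach the surface and open.

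No channel gene passed the comparison of the segments over all 6 arrays. Without the array labelled ascending replicate 3, 8 channel genes were higher in ascending aorta and 7 were lower, together 13% of the list, where 4.68% of all genes passed, 2.07% higher and 2.61% lower. Of these 15 genes, 6 also passed when descending replicate 1 was left out too. Kcnip4, an accessory subunit of Kv4 channels, was highest above descending aorta with a 4.33-fold difference, and Kcnd2, which encodes a Kv4 pore, was 2.06-fold lower (adjusted p = 0.00014 and 0.0465 by limma, 5 arrays). That array was singled out by its values, which is likely to make p-values of the fit too small, and on 11 of the 15 genes it lay on the other side of the descending mean. Abcc9, a subunit of the ATP-sensitive potassium channel of vessels, was lower on all 3 ascending arrays but did not pass.

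Ascending replicate 3 lay with the descending arrays. Across all genes its mean Pearson correlation was 0.996 with them, while with ascending replicates 1 and 2 it was 0.988. These coefficients run across genes, which are no independent replicates. Over the 115 channel genes it correlated at 0.986 to 0.989 with the descending arrays and at 0.921 and 0.945 with ascending replicates 2 and 1. Descending replicate 1 stood slightly apart from descending replicates 2 and 3 (mean correlation 0.995 across all genes, against 0.997 between those replicates). Ascending replicates 1 and 2 correlated at 0.993 with each other, lower than any pair of descending arrays. The fit without ascending replicate 3 has only that pair for ascending aorta. Array weights from limma were lowest for ascending replicate 2 (0.567), beside 0.577 for descending replicate 1 and 0.628 for ascending replicate 3. Smooth muscle RNA was present on every array. The actin gene of smooth muscle, Acta2, ranged from 13.63 to 13.77. All 8 smooth muscle markers had means above the median of all genes. The other markers varied more: Myh11 ranged from 9.42 to 10.63 and Myocd from 9.83 to 10.82.

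Over all 6 arrays, limma called 0 of 115 channel genes at an adjusted p of 0.05, and 0% of all genes, and the smallest adjusted p among the channel genes was 0.53. An unadjusted p under 0.05 was reached by 10 channel genes (8.7%), 3 higher and 7 lower in ascending aorta, where 9.29% of all genes reached that level, 3.96% higher and 5.33% lower. The 3 ascending arrays lay entirely above the descending arrays for 2 channel genes and entirely below for 13, together 13% of the list, where 14.8% of all genes were separated, 5.87% above and 8.95% below. Both shares were near those of all genes. By their means 41 channel genes were higher (35.7%, where 43.8% of all genes were higher) and 74 lower, with a median log2 difference of -0.066 beside -0.021 over all genes. After repeated quantile normalization the split was 50 higher and 65 lower, beside 47.2% higher among all genes. Only 30 of the 115 genes had a mean level above the median of all genes, which limits what the rest can show, since RMA compresses differences of dim probe sets.

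Without ascending replicate 3, 15 channel genes passed (13%), where 4.68% of all genes did. The higher genes were 8, beside 2.07% of all genes, and the lower genes 7, beside 2.61%. Leaving out descending replicate 1 as well left 7 channel genes, 4 higher and 3 lower, beside 2.35% of all genes, 1.17% higher and 1.18% lower, and 6 of these were among the 15. They were Kcnip4, Kcnab1, Kcnh2, Kcna6, Cacna2d3 and Kcnv1, and Kcnip3 passed only there. Where 0 stands for the mean of the descending arrays and 1 for that of ascending replicates 1 and 2, ascending replicate 3 had a median position of -0.072 over the 15 genes and of 0.046 over all genes that passed. It lay beyond all 3 descending arrays on the side of the other ascending arrays for 1 gene, Kcnk6. It lay within the descending range for 10 genes and beyond it on the opposite side for 4, Kcnip4, Kcnab1, Kcnd2 and Cacna2d3.

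**Figure D1:**
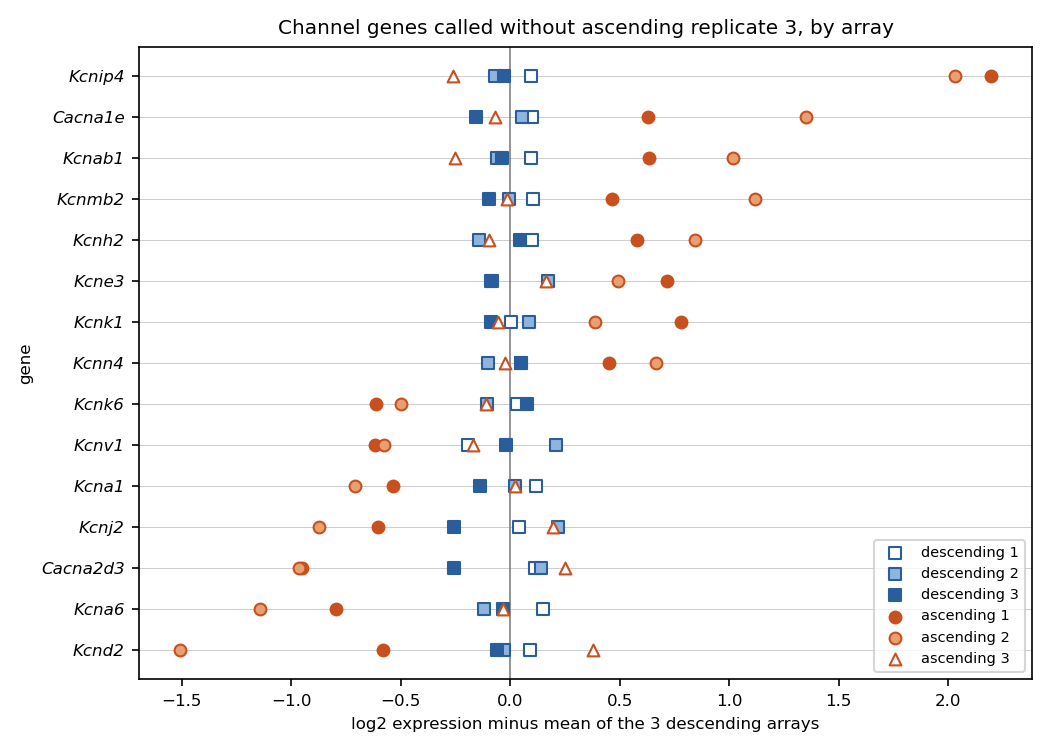
Log2 expression of the 15 channel genes that passed without ascending replicate 3, each array shown relative to the mean of the 3 descending arrays of that gene. Circles are ascending replicates 1 and 2, the open triangle is ascending replicate 3 and squares are descending arrays; the triangle lies within or beyond the squares for 14 genes and between them and the circles only for Kcnk6.

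The 35 genes grouped as pores of voltage-gated potassium channels, which open on depolarisation, included subunits that form no channel alone (Kcnf, Kcng, Kcns, Kcnv). Over all 6 arrays 11 were higher by their means (31.4%, beside 43.8% of all genes) and 24 lower. The median log2 difference of the 35 was -0.085, with 0 genes passing. After repeated quantile normalization 15 were higher and 20 lower. Without ascending replicate 3, 1 gene rose and 4 fell, together 14.3%, beside 4.68% of all genes (2.07% higher and 2.61% lower). Kcna6, a pore of the Kv1 family found mostly in nerve, gave 7.61, 7.26 and 8.37 on ascending replicates 1, 2 and 3 and 8.55, 8.28 and 8.37 on the descending replicates in the same order. Ascending replicates 1 and 2 lay below every descending array, and ascending replicate 3 lay among them. The difference was -0.66 ± 0.25 (SE) over all 6 arrays, and without ascending replicate 3 the gene fell by 0.97 ± 0.13 (SE) on the log2 scale (adjusted p = 0.00721 by limma).

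Kcna1, the Kv1 pore encoded next to Kcna6 on chromosome 6, gave 7.48, 7.30 and 8.04 in ascending and 8.13, 8.04 and 7.88 in descending aorta. Its pattern was that of Kcna6, with a Pearson correlation of 0.978 over the 6 arrays, given as a description, and without ascending replicate 3 it fell by 0.62 ± 0.11 (SE) (adjusted p = 0.0207 by limma). Kcna5, the next gene of that cluster and a Kv1 pore of vascular and atrial muscle, gave 7.52, 7.41 and 7.07 against 7.22, 7.05 and 7.22. It was not lower: its log2 difference was 0.17 ± 0.13 (SE) over all 6 arrays and 0.30 ± 0.10 (SE) without ascending replicate 3, and it did not pass (adjusted p = 0.168 by limma). The groups overlapped for all 3 genes of the cluster.

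Kcnd2, whose channels carry fast transient currents, gave 7.80, 6.87 and 8.76 on the ascending and 8.47, 8.35 and 8.32 on the descending arrays. Ascending replicate 2 was the lowest array by a wide margin, ascending replicate 1 also lay below the descending arrays, and ascending replicate 3 lay above them all. Its log2 difference was -0.57 ± 0.40 (SE) over all 6 arrays, and without ascending replicate 3 it fell by 1.05 ± 0.23 (SE) (adjusted p = 0.0465 by limma). Without descending replicate 1 as well, Kcnd2 no longer passed (adjusted p = 0.165).

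The gene that rose among these pores was Kcnh2, the ERG channel that repolarises heart muscle. It gave 9.27, 9.54 and 8.59 in ascending and 8.79, 8.55 and 8.73 in descending aorta, so that ascending replicates 1 and 2 stood above all other arrays. With ascending replicate 3 left out it rose by 0.71 ± 0.12 (SE) (adjusted p = 0.0165 by limma). Kcnv1, a silent subunit that forms no channel alone, gave 5.81, 5.85 and 6.25 against 6.23, 6.63 and 6.41 and fell by 0.60 ± 0.13 (SE) in the same fit.

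Some pores were separated on all 6 arrays by small margins. Kcns1, another silent subunit, had the smallest unadjusted p of the list (0.00673 by limma, adjusted p = 0.53), with 6.55, 6.31 and 6.53 in ascending and 6.98, 6.78 and 6.76 in descending aorta. All ascending arrays lay below all descending arrays, and the log2 difference was -0.38 ± 0.10 (SE). Kcna4, a Kv1 pore of transient currents, was separated in the same way, at 6.82, 6.32 and 6.601 against 7.51, 6.90 and 7.08, a difference of -0.58 ± 0.18 (SE). Kcnq1, the pore of a slow delayed current, differed by -0.20, and its relative Kcnq3 by 0.18, each without overlap of the groups, and Kcnq1 by -0.077 without descending replicate 1. The silent subunit Kcng2 and the EAG-family pore Kcnh8 were also lower without overlap, by margins no larger (-0.13 and -0.13). Kcnc2 differed by 0.35, Kcnq5 by 0.27 and Kcna2 by 0.14, with overlap. None of these passed in either fit.

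Accessory potassium channel subunits other than Kcnmb and the sulphonylurea receptors, which were counted with their pores, held the largest difference of all. Of 13 genes, 7 were higher (53.8%, beside 43.8% of all genes) and 6 lower by their means over all 6 arrays. The median log2 difference of the 13 was 0.044, with 0 genes passing. Without ascending replicate 3, 3 rose (23.1%, beside 2.07% of all genes) and none fell. Kcnip4, a calcium-binding protein that joins Kv4 pores, gave 8.82 and 8.66 on ascending replicates 1 and 2, 6.36 on ascending replicate 3 and 6.72, 6.56 and 6.599 on the descending replicates. Ascending replicates 1 and 2 stood far above the rest, which lay close together, and ascending replicate 3 was the lowest array. Over all 6 arrays the difference was 1.32 ± 0.58 (SE) and did not pass (adjusted p = 0.538 by limma). Without ascending replicate 3 Kcnip4 rose by 2.11 ± 0.10 (SE) (adjusted p = 0.00014), and without descending replicate 1 as well it still passed (adjusted p = 0.00269).

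Kcnip4 and Kcnd2, whose products assemble in 1 channel, thus differed in opposite directions in that fit. Their upstream windows are shown because they are partners at opposite ends of the list. The sequences are those of RefSeq on GRCm38.p6, the 250 bases before an annotated start, for Kcnip4 on the minus strand at chr5:49285660-49285909 and for Kcnd2 on the plus strand at chr6:21215096-21215345. They are written 5′ to 3′ with each CG dinucleotide in capitals.
Kcnip4: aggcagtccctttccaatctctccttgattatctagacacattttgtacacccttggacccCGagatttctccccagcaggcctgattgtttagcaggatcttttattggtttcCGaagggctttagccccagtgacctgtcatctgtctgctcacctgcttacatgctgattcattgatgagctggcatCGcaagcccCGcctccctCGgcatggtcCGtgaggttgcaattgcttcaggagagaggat
Kcnd2: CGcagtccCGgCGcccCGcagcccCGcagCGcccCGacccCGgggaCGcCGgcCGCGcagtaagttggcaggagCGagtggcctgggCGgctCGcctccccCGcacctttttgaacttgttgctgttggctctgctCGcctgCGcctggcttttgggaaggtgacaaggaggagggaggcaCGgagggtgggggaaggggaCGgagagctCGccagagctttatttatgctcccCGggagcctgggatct
The Kcnip4 window holds 6 CG dinucleotides at 51.2% G and C, and that of Kcnd2 holds 22 at 68.8%. A second annotated start of Kcnip4 has 5 CG dinucleotides in its window, and which start these RNAs used is not known from 1 probe set.

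Kcnab1, a cytoplasmic subunit of Kv1 channels, gave 9.52, 9.90 and 8.63 in ascending and 8.97, 8.82 and 8.84 in descending aorta. Ascending replicates 1 and 2 were the 2 highest arrays and ascending replicate 3 the lowest. The gene rose by 0.83 ± 0.13 (SE) when that array was left out (adjusted p = 0.0117 by limma). Kcnab2, the related subunit, was lower on all 3 ascending arrays, at 7.53, 7.18 and 7.52 against 7.77, 7.67 and 7.58, a difference of -0.26 ± 0.12 (SE) that did not pass. Kcne3, a small membrane partner of Kcnq1 and other pores, gave 6.76, 6.53 and 6.20 against 5.96, 6.21 and 5.95 and rose by 0.60 ± 0.12 (SE) without ascending replicate 3. Kcne2, a relative of Kcne3, was lower on all 3 ascending arrays by a small margin (-0.10). Kcnip3, a relative of Kcnip4 that also acts as a transcriptional repressor, differed by 0.43 ± 0.16 (SE) over all 6 arrays. It passed only with ascending replicate 3 and descending replicate 1 both left out (adjusted p = 0.0422 by limma).

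**Figure D2:**
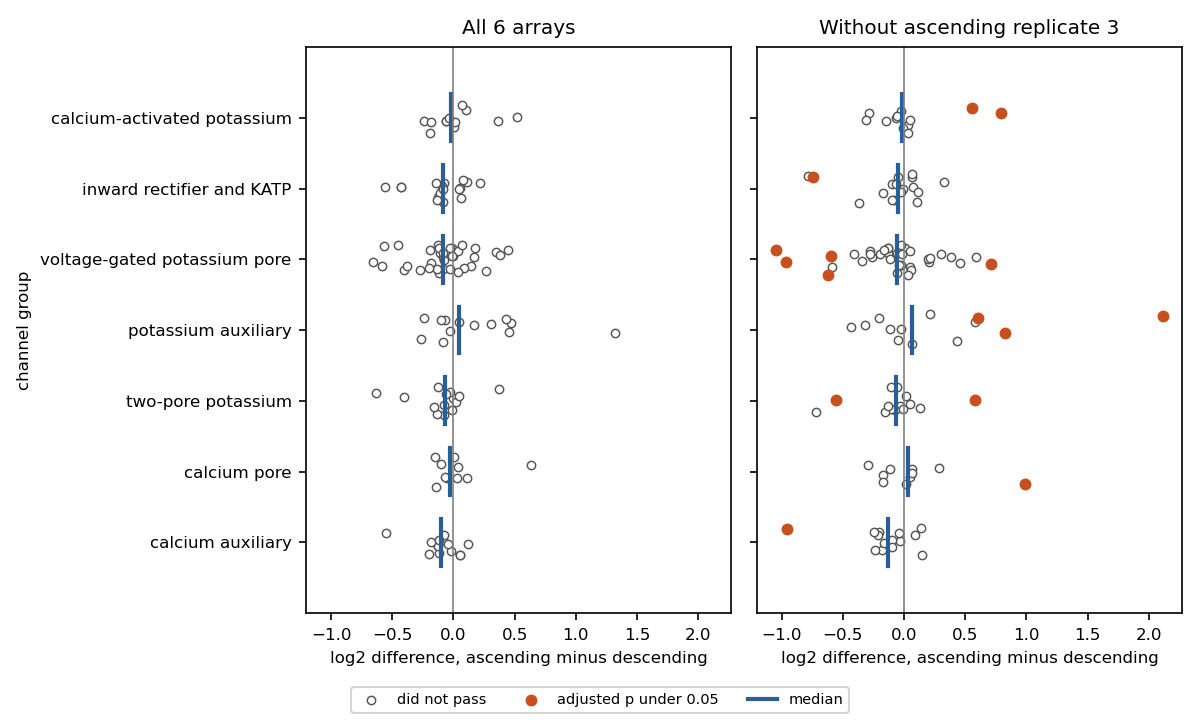
Log2 difference, ascending minus descending, of each of the 115 channel genes by group, over all 6 arrays on the left and without ascending replicate 3 on the right. Blue bars are group medians and filled points passed an adjusted p of 0.05; 0 points are filled on the left and 15 on the right, and all medians lie close to 0.

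Inward rectifiers and the ATP-sensitive channel were measured through 17 genes. By their means 6 were higher (35.3%, beside 43.8% of all genes) and 11 lower. The median log2 difference of the 17 was -0.086, with 0 genes passing over all 6 arrays. The vascular ATP-sensitive channel couples the pore of Kcnj8 with the sulphonylurea receptor of Abcc9, and it marks pericytes and smooth muscle. Abcc9 gave 10.20, 9.77 and 9.79 on the ascending replicates and 10.55, 10.21 and 10.31 on the descending replicates. The groups did not overlap, although ascending replicate 1 lay only just under descending replicate 2. The means were 9.92 ± 0.24 (SD, n = 3) and 10.36 ± 0.17 (SD, n = 3), and the difference of -0.43 ± 0.14 (SE) did not pass (adjusted p = 0.53 by limma). This was a gene on which ascending replicate 3 lay with ascending replicate 2, and without it the difference was -0.37 ± 0.15 (SE) (adjusted p = 0.27).

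Kcnj8 gave 10.22, 9.25 and 10.42 in ascending and 10.60, 10.40 and 10.58 in descending aorta. Ascending replicate 2 was far below the others, while ascending replicates 1 and 3 came near the descending arrays, and replicate 3 lay above the lowest of them. The difference was -0.56 ± 0.28 (SE) over all 6 arrays and -0.79 ± 0.24 (SE) without ascending replicate 3, and it did not pass in either (adjusted p = 0.557 and 0.135 by limma). Kcnj8 and Abcc9 are neighbours on chromosome 6. Their Pearson correlation over the 6 arrays was 0.672, in place 23 of the 114 other channel genes, and the genes most like Kcnj8 were Kcnj11 (0.966), Kcnh3 (0.933) and Kcnd2 (0.927). Kcnj11 itself ranged only from 7.19 to 7.35, below the median level of all genes. The coefficients are a description over 6 arrays, of which ascending replicate 2 lay farthest from the rest for Kcnj8.

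The upstream windows of this pair are shown because the genes are neighbours whose products form 1 channel. Both lie on the minus strand of chromosome 6, Kcnj8 with its window at chr6:142571615-142571864 and Abcc9 at chr6:142702275-142702524 of GRCm38.p6, with CG dinucleotides in capitals.
Kcnj8: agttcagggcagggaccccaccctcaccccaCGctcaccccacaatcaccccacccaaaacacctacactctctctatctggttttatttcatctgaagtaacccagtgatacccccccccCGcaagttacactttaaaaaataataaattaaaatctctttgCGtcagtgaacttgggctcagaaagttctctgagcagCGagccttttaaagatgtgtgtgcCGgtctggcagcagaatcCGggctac
Abcc9: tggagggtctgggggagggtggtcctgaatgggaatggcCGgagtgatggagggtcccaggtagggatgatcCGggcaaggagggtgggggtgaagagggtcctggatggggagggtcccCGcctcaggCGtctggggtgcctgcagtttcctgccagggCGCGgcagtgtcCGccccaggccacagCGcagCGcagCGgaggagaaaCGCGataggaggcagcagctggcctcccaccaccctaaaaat
The Kcnj8 window holds 6 CG dinucleotides at 49.2% G and C, and the Abcc9 window 12 at 66.8%. RefSeq windows were matched for 87 of the 115 channel genes, 120 windows in all, with a median of 8 CG dinucleotides and 58.8% G and C beside 6 and 52.4% over all 32851 windows. The motifs below were searched on both strands of the 250 bases. AGATAA, bound by GATA factors, was in 2.5% of the channel windows, among them that of Kcnip4 shown above, and in 9.99% of all windows. TATAAA was in 3.33% against 12.4%. TAATTA, a homeodomain motif, was in 0 channel windows against 4.84% of all, and the CArG box of serum response factor was in 0 against 1.47%. Each of these patterns is mostly A and T, while the channel windows held more G and C, and the shares were not adjusted for base composition. Some genes have several windows, so windows are not independent. A missing match says only that these letters are not in this stretch.

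Kcnj2, the strong inward rectifier known in vascular muscle and endothelium, gave 6.70, 6.43 and 7.50 in ascending and 7.34, 7.52 and 7.04 in descending aorta. Ascending replicates 1 and 2 were the lowest arrays, and ascending replicate 3 lay among the descending arrays. With that array left out it fell by 0.74 ± 0.15 (SE) (adjusted p = 0.0353 by limma). Kcnj11 and Abcc8, the neighbouring genes of the pancreatic form of the ATP-sensitive channel, differed by -0.080 and -0.12 over all 6 arrays. The groups overlapped for Abcc8 but not for Kcnj11. Kcnj3 and Kcnj5, the pores of the acetylcholine-gated channel of the atrium, differed by 0.059 and -0.14.

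Calcium-activated potassium channels, through which calcium itself limits contraction, were grouped by symbol with their relatives Kcnt1, Kcnt2 and Kcnu1, 12 genes in all. By their means 6 were higher (50%, beside 43.8% of all genes) and 6 lower. Over all 6 arrays, where 14.8% of all genes were separated, 0 of the 12 were separated and 0 passed. Their median log2 difference was -0.019, and 0.015 after repeated quantile normalization. Kcnma1, the pore of the large-conductance channel, had 2 probe sets that disagreed. The brighter probe set (number 10582545), which stands for the gene by the rule used here, gave 8.48, 8.18 and 8.04 in ascending and 8.09, 8.79 and 8.01 in descending aorta, with descending replicate 2 highest. Its log2 difference was -0.065 ± 0.22 (SE), and it was 0.18 without descending replicate 2. The platform annotation lists 0 RefSeq transcripts for this probe set and 17 for the other (number 10418053). The other gave 7.05, 6.21 and 7.68 on ascending replicates 1, 2 and 3 and 7.87, 7.71 and 7.58 on the descending replicates. Ascending replicates 1 and 2 lay below all other arrays there, and the difference was -0.74 ± 0.32 (SE). It did not pass over all 6 arrays (adjusted p = 0.538 by limma). With ascending replicate 3 left out that probe set fell by 1.09 ± 0.22 (SE), with an adjusted p of 0.0342, and without descending replicate 1 as well it no longer passed (adjusted p = 0.137). This probe set was looked at after the values were seen, and it is not among the 15 genes. Of the 115 channel genes, 111 had a kept probe set that is listed with RefSeq transcripts.

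Kcnmb1, the smooth muscle subunit that makes the large-conductance channel more sensitive to calcium, gave 8.71, 8.18 and 8.31 against 8.76, 8.39 and 8.63. The arrays of the segments were interleaved, and the difference was -0.19 ± 0.16 (SE). Kcnmb2, another such subunit, gave 6.29, 6.94 and 5.81 against 5.92, 5.82 and 5.72, with ascending replicates 1 and 2 above all others. It rose by 0.79 ± 0.18 (SE) without ascending replicate 3, close to the threshold (adjusted p = 0.0496 by limma). Kcnn4, the intermediate-conductance channel found in endothelium, blood cells and proliferating smooth muscle, gave 8.46, 8.67 and 7.98 against 8.06, 7.90 and 8.06 and rose by 0.56 ± 0.11 (SE) in that fit.

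**Figure D3:**
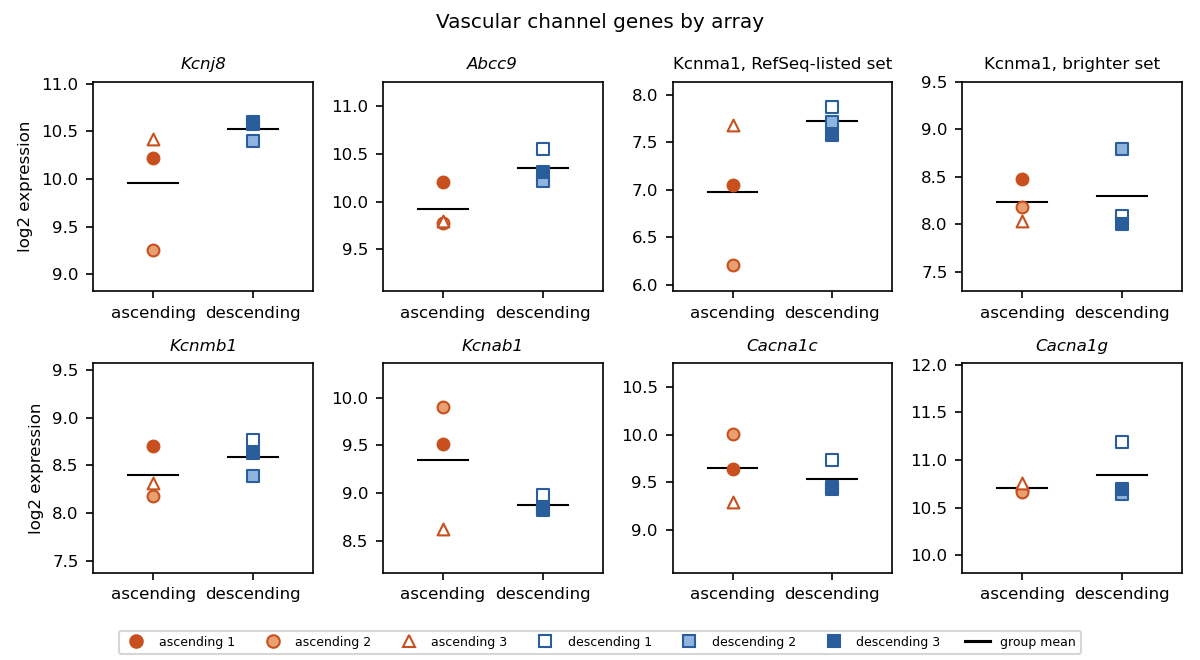
Log2 expression by array of channel genes known from vascular smooth muscle, with Kcnma1 through both of its probe sets, in panels that each span 2.2 log2 units. Circles are ascending replicates 1 and 2, the triangle is ascending replicate 3, squares are descending arrays and bars are group means; of the 8 panels drawn, that of Abcc9 has all ascending arrays below all descending arrays, and Kcnq1, separated in the same way, is not drawn.

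Two-pore potassium channels, which leak at rest, were measured through 14 genes, and 0 passed over all 6 arrays. By their means 3 were higher (21.4%, beside 43.8% of all genes) and 11 lower. After repeated quantile normalization 6 were higher (42.9%, beside 47.2% of all genes) and 8 lower. Kcnk6, of the TWIK branch, gave 9.79, 9.90 and 10.29 in ascending and 10.43, 10.29 and 10.48 in descending aorta. All ascending arrays lay below all descending arrays, ascending replicate 3 only just. The difference was -0.41 ± 0.14 (SE) over all 6 arrays (adjusted p = 0.53 by limma), and without ascending replicate 3 Kcnk6 fell by 0.56 ± 0.10 (SE) (adjusted p = 0.0208). Kcnk1, of the same branch, went the other way, at 9.95, 9.55 and 9.11 against 9.17, 9.25 and 9.08, and rose by 0.58 ± 0.13 (SE) without ascending replicate 3. Kcnk3, an acid-sensitive leak channel of pulmonary artery smooth muscle, gave 9.52, 9.35 and 9.17 against 9.26, 9.20 and 9.44, with the segments interleaved and a difference of 0.044 ± 0.11 (SE). Kcnk9, the related acid-sensitive channel, differed by -0.64 ± 0.32 (SE), from 6.602, 7.28 and 7.18 against 8.39, 7.22 and 7.35. Descending replicate 1 was by far the highest array and ascending replicate 1 the lowest, and the gene did not pass. Without descending replicate 1 the difference was -0.27. Kcnk2, which opens on membrane stretch, was lower on all 3 ascending arrays, at 6.50, 6.40 and 6.51 against 6.61, 6.55 and 6.64, a difference of only -0.13.

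The pores of voltage-gated calcium channels were measured through 10 genes. By their means 5 were higher (50%, beside 43.8% of all genes) and 5 lower, and 0 of the 10 passed over all 6 arrays. Their median log2 difference was -0.027, and 0.011 after repeated quantile normalization. Cacna1c, the L-type pore on which contraction of arteries depends, gave 9.63, 10.001 and 9.30 in ascending and 9.73, 9.43 and 9.45 in descending aorta. Ascending replicate 2 was the highest array and ascending replicate 3 the lowest, and the difference was 0.11 ± 0.18 (SE). It was -0.069 without ascending replicate 2, so its direction rests on that array. The T-type pores, which open near the resting voltage, were also close: Cacna1g differed by -0.14 ± 0.14 (SE) and Cacna1h by -0.15 ± 0.16 (SE). For Cacna1g descending replicate 1 stood at 11.18 and the other arrays at 10.65 to 10.76, and without that array the difference was 0.031. That of Cacna1h was -0.024 without descending replicate 1 and -0.29 without ascending replicate 3. Cacna1e, the R-type pore of nerve and endocrine cells, was the gene that passed here. It gave 7.36, 8.08 and 6.66 against 6.83, 6.79 and 6.57, with ascending replicates 1 and 2 above all others, and rose by 0.99 ± 0.20 (SE) without ascending replicate 3 (adjusted p = 0.0308 by limma). Cacna1a, the P/Q-type pore of nerve endings, was lower on all 3 ascending arrays with a difference of -0.10 that did not pass.

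Accessory calcium channel subunits were measured through 14 genes. By their means over all 6 arrays 3 were higher (21.4%, beside 43.8% of all genes) and 11 lower. The median log2 difference of the 14 was -0.10, with 0 genes passing. Cacna2d3, an extracellular subunit that carries pores to the surface, gave 7.34, 7.33 and 8.55 in ascending and 8.41, 8.44 and 8.04 in descending aorta. Ascending replicates 1 and 2 lay together below the rest, and ascending replicate 3 was the highest array. It fell by 0.96 ± 0.13 (SE) without ascending replicate 3 (adjusted p = 0.00738 by limma). Cacna2d1, the subunit of that family in muscle, differed by 0.053 ± 0.11 (SE) over all 6 arrays through its kept probe set. A dimmer probe set of Cacna2d1, also listed with RefSeq transcripts, differed by 0.22. It gave 8.56, 8.89 and 8.39 in ascending and 8.43, 8.51 and 8.25 in descending aorta, with overlap. Cacnb2, a cytoplasmic subunit of L-type channels, was higher on all 3 ascending arrays by a small margin, 6.77, 6.77 and 6.71 against 6.68, 6.71 and 6.50, but like that of Kcnma1 its probe set is listed with no RefSeq transcript. Of the gamma subunits, several of which also serve glutamate receptors, Cacng5 was lower without overlap (-0.18), Cacng4 differed by -0.13 and Cacng7 by -0.042, and none passed.

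In the genome 27 of the channel genes lie next to another of them, in 15 pairs of consecutive protein-coding genes. In 8 of the 15 pairs both genes differed in the same direction over all 6 arrays. The pair of Kcnj16 and Kcnj2 on chromosome 11 had differences of 0.055 and -0.43, while Cacng1, Cacng4 and Cacng5 on that chromosome were all lower, at -0.11, -0.13 and -0.18.

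Other genes of excitability and calcium handling were described from a list of 50, of which 43 were measured. Over all 6 arrays 0 of the 43 passed in limma, 9 reached an unadjusted p under 0.05 (20.9%, 2 higher and 7 lower, beside 9.29% of all genes, 3.96% higher and 5.33% lower), and the median log2 difference was -0.076. Without ascending replicate 3, 5 passed (11.6%, beside 4.68% of all genes), 3 higher and 2 lower. Hcn4, the pacemaker channel of the heart, gave 8.73, 8.70 and 7.83 in ascending and 7.75, 7.60 and 7.63 in descending aorta. All ascending arrays lay above all descending arrays, ascending replicate 3 by the least, and Hcn4 rose by 1.06 ± 0.094 (SE) without that array (adjusted p = 0.00118 by limma). Piezo2, a mechanically gated channel, gave 9.53, 8.74 and 10.87 against 11.10, 11.17 and 10.996. It was lower on every ascending array, by a little on ascending replicate 3, and fell by 1.95 ± 0.21 (SE) without it (adjusted p = 0.00226 by limma).

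Gap junctions couple the cells of the wall electrically. Gja5, of endothelium and atrium, gave 9.65, 9.42 and 9.99 against 10.12, 10.20 and 10.13 and fell by 0.61 ± 0.10 (SE) without ascending replicate 3. Gja1 and Gjc1 were lower on all 3 ascending arrays, with differences of -0.36 and -0.24, and passed in neither fit, and Gja4 differed by 0.27 with overlap. Of the genes of calcium stores and transport, Atp2a3, a calcium pump of the reticulum, rose by 0.59 ± 0.098 (SE) without ascending replicate 3. Scn7a, a sodium channel gene, rose by 0.87 ± 0.14 (SE) there. Over all 6 arrays Slc8a2 and Itpr3 differed by -0.33 and -0.22, and Trpv2 and Trpc5 by -0.32 and 0.30, each without overlap of the groups. Pln, which restrains the calcium pump of heart and smooth muscle, ranged from 5.75 on ascending replicate 3 to 8.76 on ascending replicate 2, and its difference of 0.70 ± 0.67 (SE) did not pass.

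Markers of other cell types differed across the same arrays as the channel genes that passed. In dissected tissue, fewer cells of a type and less RNA per cell cannot be told apart. All 8 markers of mesothelium and epicardium had a higher mean in ascending aorta, with a median log2 difference of 1.05. Their summed level, on the linear scale, was 11261, 12148 and 5286 on ascending replicates 1, 2 and 3 and 3533 to 4830 on the descending replicates. All 15 cardiac muscle markers had a higher mean, with a median of 0.20 and sums of 9155, 11665 and 7106 against 5313 to 6787. Of these 15, 7 lay below the median level of all genes, among them Nppa and Myh6. The brighter markers did not share a pattern on ascending replicate 3. Tnnt2 gave 10.78, 11.49 and 8.86 against 8.90, 8.74 and 9.06. Actc1 gave 11.23, 11.40 and 11.31 against 10.74, 10.75 and 11.01, and Myl7 was highest on ascending replicate 3 (9.93). The sums followed the order of Kcnip4, Kcnh2 and Kcnab1 in that ascending replicates 1 and 2 were highest. The same held for the sums of smooth muscle markers, at 30672, 28166 and 24809 against 27313 to 27809. It held for the sums of epithelial markers too, at 2103, 1492 and 1068 against 1006 to 1092. By the list medians, as log2 deviations from the descending mean, it held for neither list. For smooth muscle ascending replicate 2 stood at 0.0001, below descending replicates 1 (0.032) and 3 (0.014). For epithelial markers that array stood at 0.014, below ascending replicate 3 (0.038) and descending replicates 2 (0.062) and 3 (0.095). On ascending replicate 3 the smooth muscle sum was the lowest of the 6 arrays. The part of any of these cells in the channel results was not tested.

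All 10 endothelial markers had a lower mean in ascending aorta, with a median of -0.40 and sums of 15122, 15667 and 21858 against 22668 to 25551. All 8 macrophage markers were lower by their means, with a median of -0.36 and sums of 3628, 2033 and 5534 against 5584 to 5660. All 6 measured glial markers were lower too, with a median of -0.41 and sums of 1113, 671 and 1836 against 1568 to 1787, and 5 of the 6 lay below the median level of all genes. Ascending replicate 2 was lowest for macrophage and glial markers, as it was for Kcnd2, Kcna6, Kcnj8 and the RefSeq-listed probe set of Kcnma1. It was also lowest, by sum and by median, for the fibroblast and skeletal muscle lists described below. Whether these cells account for part of those differences was not tested.

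Neuronal markers, which matter here because many of these channels are best known from nerve, were split, 5 higher and 8 lower of 13, with a median of -0.077 and sums of 4812, 5338 and 4496 against 4941 to 5451. Smooth muscle markers were 4 higher and 4 lower, with a median of 0.013 and sums of 30672, 28166 and 24809 against 27313 to 27809. Pericyte markers, 1 higher and 5 lower of 6, had a median of -0.14 and sums of 13955, 15113 and 12179 against 12754 to 14889. Their sum was led by Pdgfrb and Rgs5, and Rgs5 stood at 12.19, 12.19 and 10.95 on the ascending replicates against 11.33, 11.29 and 11.29. The sums and the list's medians did not have the same order across arrays. Fibroblast markers were 1 higher and 4 lower, with a median of -0.26 and sums of 22562, 18032 and 26719 against 26820 to 27429. Skeletal muscle markers were 5 higher and 4 lower with a median of 0.022 and sums of 1760 to 2236 against 1892 to 2133. All 5 epithelial markers were higher by their means, with a median of 0.31 and sums of 2103, 1492 and 1068 against 1006 to 1092, and Cdh1, Epcam and Nkx2-1 lay below the median level of all genes. The part of these lists in the channel results was not tested.

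**Figure D4:**
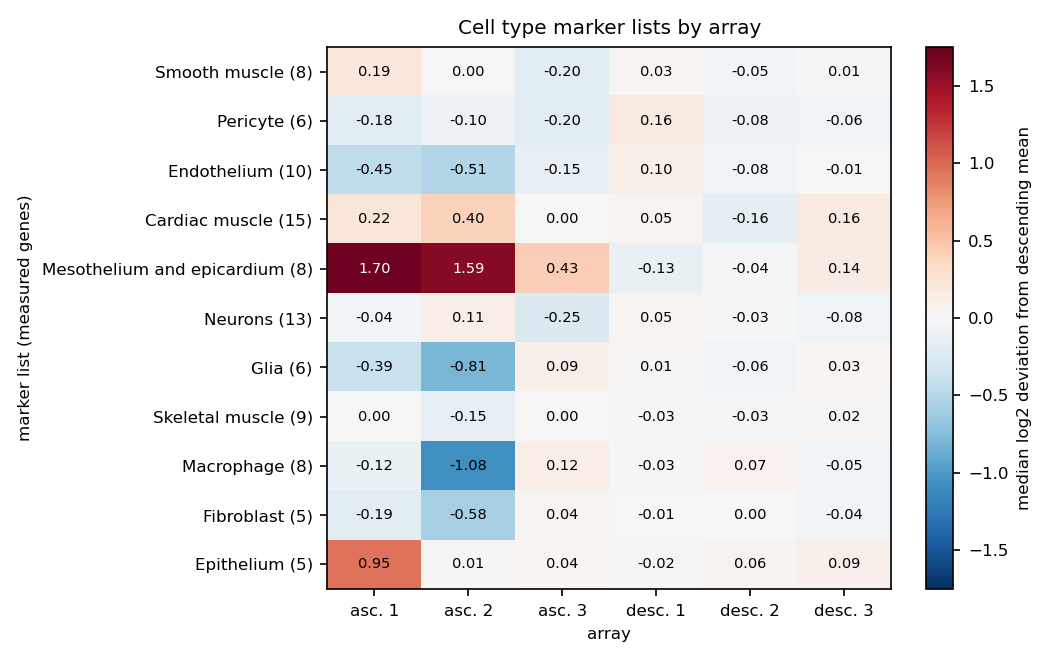
Median log2 deviation of each cell type marker list from the descending mean on each array, with the number of measured genes in parentheses. Red is higher and blue lower. The mesothelial list stands at 1.70 and 1.59 on ascending replicates 1 and 2 and at 0.43 on replicate 3. The macrophage, glial, fibroblast, endothelial and skeletal muscle lists are lowest on ascending replicate 2.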

How the data were processed

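The deposited values are log2 expression of 35556 probe sets on 6 arrays, made by the authors with RMA. The submitters' processing notes name RMA and Partek 6.6. For settings and build, the sources used here give none. The number of arrays limits precision. Probe sets with 1 symbol in the platform annotation (21789) were used, the brightest per gene, with no filter. Segments were compared over all 19938 genes with limma 3.58.1 (lmFit and eBayes, R 4.3.3), two-sided, with Benjamini-Hochberg adjustment and a threshold of 0.05; with 3 arrays a group, the smallest exact permutation p is 0.1. The scripts were tested on simulated data. Named genes were the 15 with the smallest p, the 10 brightest, those passing without ascending replicate 3 and 18 fixed vascular channel genes, of which 3 were not analysed here; others were chosen after their values were seen. The members, lists and rules were chosen with earlier results of these data known. Alternatives are given in the closing section.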

Additional observations from a re-analysis of the deposited data

How the results depend on the processing

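The count of channel genes passing was 0 under every alternative on all 6 arrays and under 5 of the 6 fits with 1 array left out, with a range of 0 to 15, the 15 coming without ascending replicate 3; it was 7 without that array and descending replicate 1 together. For the other excitability genes the range was 0 to 5, and 4 without both arrays. At an unadjusted p under 0.05 there were 4 to 32 channel genes with 1 array left out, 4 after the filter at the 50th percentile, 24 with array weights and 26 without both arrays. Arrays with the same replicate number had deviations from their group means that hardly correlated across genes (-0.080, -0.055 and 0.024). With 3 arrays a group, and ascending replicate 3 lying with the descending arrays, this cannot decide whether the samples were paired. With the replicate block 0 channel genes passed and 13 had an unadjusted p under 0.05. The filter at the 50th percentile kept 30 channel genes, so its medians rest on fewer genes: 0.069 for calcium-activated potassium, -0.43 for inward rectifier and KATP, 0.43 for potassium auxiliary, 0.044 for two-pore, -0.14 for calcium pore, 0.070 for neuronal, -1.14 for glial and -0.068 for skeletal muscle genes. The filter at the 25th percentile gave 0.18 for potassium auxiliary genes. Array weights gave 0.12 for these and -0.025 for voltage-gated pores. Without both arrays the medians were -0.0072 for two-pore, 0.056 for calcium pore and 1.64 for mesothelial genes. With 1 array left out the mesothelial median ranged from 0.79 to 1.64 and the skeletal from -0.046 to 0.045. Differences that changed sign were small: with 1 array left out, Cacna1g ranged from -0.24 to 0.031, Cacng7 from -0.22 to 0.14, Cacna1c from -0.069 to 0.28, Kcnk3 from -0.043 to 0.13, Kcnma1 from -0.21 to 0.18 and Cacna2d1 from -0.0061 to 0.15. Cacna1g was 0.0002 and Cacng7 0.085 without both arrays, and Cacng7 was 0.030 with array weights. Why these values moved was not tested. Dim probe sets limit what can be seen, since only 30 of the 115 channel genes lay above the median level of all genes.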
